A study of Mus musculus with 14 samples.

Results

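Blood clotting and clot removal are run in large part from the inner surface of vessels. Factor VIII and von Willebrand factor promote clotting, thrombomodulin and the endothelial protein C receptor turn thrombin towards the activation of the anticoagulant protein C, tissue factor pathway inhibitor stops the tissue factor pathway, and the plasminogen activators and their receptor start the removal of fibrin. Liver sinusoidal endothelial cells (LSECs), the fenestrated cells that line the liver sinusoids, are known as a major source of circulating factor VIII, whereas von Willebrand factor is typical of the endothelium of larger vessels. The levels of 9 genes of this system, F8, Vwf, Thbd, Procr, Tfpi, F2r, Plat, Plau and Plaur, were followed in LSECs after acute liver injury. The 9 genes are 9 of the 54524 Ensembl genes in the count table and were chosen by symbol.

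LSECs came from male Balb/c mice. The 4 groups were healthy mice that were not injected (4 samples) and mice at day 1 (2 samples), day 3 (4 samples) or day 7 (4 samples) after 1 intraperitoneal injection of CCl4, a solvent toxic to hepatocytes, at 0.5 µl per g of body weight in mineral oil. The labels give an age of 10 to 12 weeks, the healthy mice received no oil injection, and the study sequenced no further day 1 samples because their RNA quality was low. Cells were sorted as CD32+ and F4/80-, without autofluorescence in the UV channel and without propidium iodide, and RNA was extracted without culture. The study's methods also give a gate against CD45, the surface marker of immune cells, which the labels do not name.

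Sample totals in the count table ran from 46401496 to 103912264 reads. Levels are given as CPM, the count scaled to a common total, on a library size scaled by the trimmed mean of M values (TMM). The summed level of 10 LSEC markers (among them Stab2, Clec4g and Lyve1) was 17752 to 21222 CPM in healthy samples, against 12354 and 15435 CPM at day 1, a range of 10809 to 15602 CPM for day 3 and one of 10479 to 15175 CPM for day 7, so the labelled cell type was present in each library. Other cells contributed RNA as well. Ptprc, the gene of CD45, was at 36.9 to 109.6 CPM in healthy samples, 128 to 177 CPM at day 1, 46.7 to 269.6 CPM at day 3 and 134 to 154 CPM at day 7. The summed level of 11 monocyte and neutrophil markers was 39.6 to 231 CPM in healthy samples, 6756 and 2914 CPM at day 1, 5130.3, 2818, 152 and 103 CPM in day 3 samples 1 to 4, and 199 to 344 CPM at day 7. That of 10 hepatic stellate cell markers was 149 to 275 CPM in healthy samples, 107 to 127 CPM at day 1, 698 to 2077 CPM at day 3 and 392 to 5940.1 CPM at day 7. In bulk RNA, fewer cells of a type and less RNA per cell cannot be told apart.

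All 9 genes passed the filter on low counts, with between 227 and 148718 counts in any sample. Per kilobase of exon, the order of levels in healthy LSECs was F8 (135 CPM per kb), F2r (92.9), Tfpi (43.5), Thbd (36.4), Plaur (18.9), Procr (14.5), Plau (9.83), Vwf (0.517) and Plat (0.488). F8 thus stood above 98.5% of tested genes, and Vwf and Plat stood at 42.6% and 41.9%. At day 1 the order was led by Thbd (420 CPM per kb), Plaur (201) and F2r (180), and F8 had 67.2 CPM per kb.

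**Figure D1:**
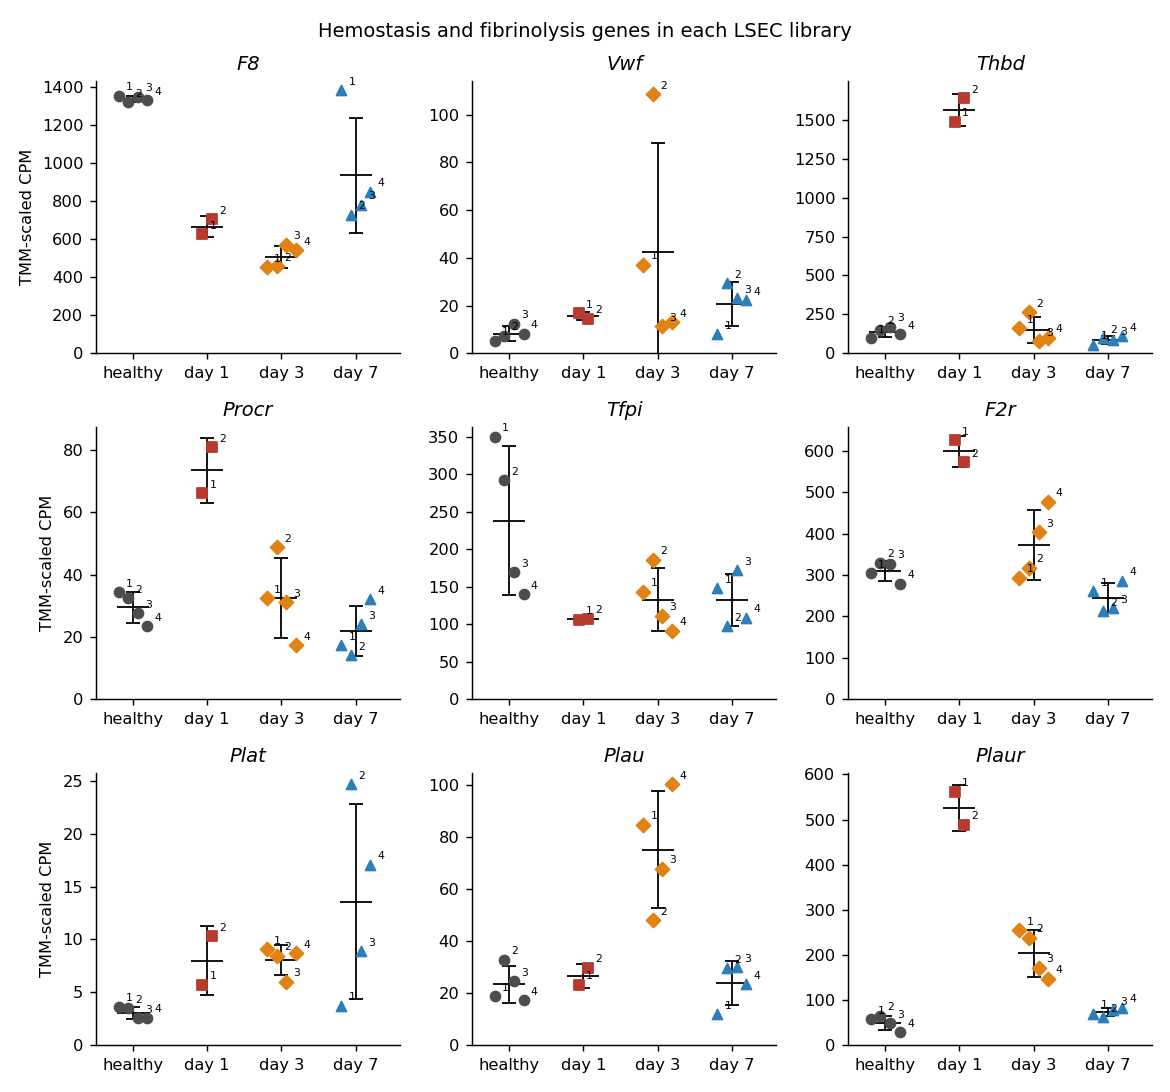
TMM-scaled CPM (y axes, linear, each from 0) of the 9 genes in every sample, by group (x axes). Numbers are sample numbers, horizontal lines are group means and bars are SDs (n = 4, 2, 4 and 4); the lower end of the Vwf bar at day 3 lies below 0 and is cut off. Thbd and Plaur are highest at day 1, Plau at day 3, and F8 is lowest at day 3.

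Against healthy LSECs, 4 of the 9 genes passed an adjusted p of 0.05 at day 1 (Thbd, Plaur and F2r higher, F8 lower), 4 at day 3 (Plaur, Plau and Vwf higher, F8 lower) and 1 at day 7 (Plat higher). Over all 26626 tested genes, 4.06% passed at day 1, 7.19% at day 3 and 3.18% at day 7. The median log2 fold change of the 9 genes was 0.95, 0.27 and -0.34 at the 3 times, beside -0.03, 0.18 and 0.02 over all tested genes. The 3 comparisons share the same 4 healthy samples.

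**Figure D2:**
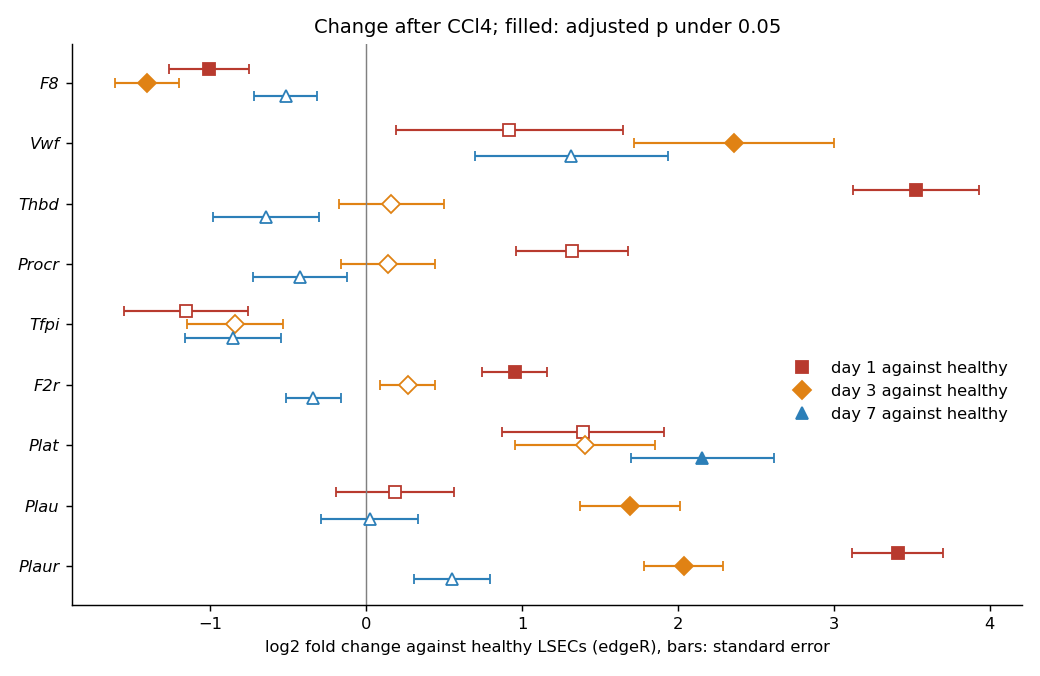
Log2 fold change against healthy LSECs (x axis) of each gene (y axis) at day 1, day 3 and day 7, from edgeR, with standard errors as bars. Filled symbols have an adjusted p under 0.05; Thbd and Plaur stand furthest right at day 1 and F8 furthest left at day 3.

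Among later and earlier times after injection, 2 of the 9 genes passed between day 3 and day 1 (2.54% of all tested genes), 3 between day 7 and day 3 (1.77%) and 4 between day 7 and day 1 (8.04%). Thbd and Plaur were lower at day 3 than at day 1. Plaur and Plau were lower and F8 was higher at day 7 than at day 3, and Thbd, Procr, Plaur and F2r were lower at day 7 than at day 1.

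To set the sequence before the genes beside their levels, promoter windows were read from RefSeq (GRCm38.p6). Windows of 300 bases, 250 before and 50 after the start site, were held for 5 of the 9 genes, 6 windows in all. The letters TGAGTCA, known as the AP-1 element, were read on both strands (reverse complement TGACTCA). They were found once each in the windows of Procr, Plaur and F2r and not in those of F8 and Tfpi. Of 32851 windows over all genes, 5.2% held these letters. The motif was chosen after the sequences had been read, and a match of letters is a description and no site of binding. The parts of the 3 windows that lie before the annotated genes are shown with the matched letters in capitals, 5′ to 3′ on the strand of each gene. They cover chr2:155750967-155751116 (plus strand) for Procr, chr7:24462233-24462482 (plus strand) for Plaur and chr13:95618488-95618716 (minus strand) for F2r.
Procr: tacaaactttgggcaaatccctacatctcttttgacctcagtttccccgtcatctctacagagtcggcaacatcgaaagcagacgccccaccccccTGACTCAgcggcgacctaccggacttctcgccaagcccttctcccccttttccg
Plaur: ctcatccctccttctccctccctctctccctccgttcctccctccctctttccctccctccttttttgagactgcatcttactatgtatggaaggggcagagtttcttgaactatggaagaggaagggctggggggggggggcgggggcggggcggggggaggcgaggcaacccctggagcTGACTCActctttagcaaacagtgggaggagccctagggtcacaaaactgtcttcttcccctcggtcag
F2r: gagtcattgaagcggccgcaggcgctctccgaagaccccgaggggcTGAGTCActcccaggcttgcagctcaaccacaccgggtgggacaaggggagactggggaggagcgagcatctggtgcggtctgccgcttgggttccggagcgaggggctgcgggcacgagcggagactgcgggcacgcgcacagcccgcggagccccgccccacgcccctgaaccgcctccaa
The first matched base stood 154 bases before the RefSeq start site in Procr, 69 in Plaur and 204 in F2r. The letters CACCC, known from elements bound by KLF factors and also read on both strands, were in 57.5% of all windows, and those of the GC box, GGGCGG, in 35.7%. Neither was found in the F8 window, and no letters overlapped between the matches of the 3 motifs.

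F8 encodes coagulation factor VIII, the cofactor of factor IX, and lies on chromosome X from 75172715 to 75382615 on the minus strand (GRCm38, 27 exon blocks). The healthy samples had 1355, 1320.2, 1349 and 1332 CPM of F8. At day 1 the values were 628 and 704 CPM, and at day 3 they were 453, 458, 570.3 and 541 CPM. Each of these 6 samples lay below every healthy sample, and the day 3 samples also lay below both day 1 samples. At day 7 the values were 1385, 729.7, 781 and 850.1 CPM, with sample 1 above all healthy samples and the other three below them. F8 fell by 1.41 on the log2 scale at day 3 (SE 0.20, n = 4 against 4, edgeR adjusted p = 0.00229), to 0.378 times the healthy level, under each alternative tried. It fell by 1.01 at day 1 (SE 0.26, n = 2 against 4, edgeR adjusted p = 0.0429), a call that was lost with library size scaling (0.0826), without the filter (0.079) and in 10 of 14 fits that left out 1 sample. These were any of the 4 healthy samples, either day 1 sample, day 3 samples 1 or 3 and day 7 samples 3 or 4, with differences of -0.96 to -1.12 and adjusted p-values of 0.0549 to 0.557.

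At day 7 the difference of F8 from healthy LSECs was -0.52 (SE 0.20, edgeR adjusted p = 0.163). The level was higher at day 7 than at day 3 by 0.89 (SE 0.20, edgeR adjusted p = 0.0429), without overlap of the groups, but this call was kept in 1 of 14 fits that left out 1 sample, that without day 3 sample 4, with an adjusted p of up to 0.109 in the others, and in neither the fit of those 2 groups alone (0.222) nor the fit without day 3 samples 1 and 2 (0.127). Since the summed LSEC markers also differed between groups, F8 was expressed as a share of them. It was 6.38% to 7.50% in healthy samples, 4.56% and 5.08% in day 1 samples, 3.47% to 4.19% in day 3 samples and 6.18% to 9.13% in day 7 samples. The shares at day 1 and day 3 again lay below all healthy shares, and at day 7 they overlapped them. Lyve1, 1 of these markers, was at 271 to 534 CPM in healthy samples and 3020 to 3397 CPM at day 1. Its rise enlarged the day 1 sums and so lowered the day 1 shares, and shares without Lyve1 were not computed. F8 spans Fundc2, Gm6039 and Gm8522 but shares no exon bases with them.

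Vwf encodes von Willebrand factor, which binds platelets and carries factor VIII in plasma, and lies on chromosome 6 from 125546774 to 125686679 on the plus strand. Healthy samples had 5.22, 7.37, 12.3 and 8.29 CPM of Vwf and day 1 samples 16.8 and 14.6 CPM. Day 3 samples 1 to 4 had 37.2, 109, 11.4 and 13.1 CPM. Day 7 samples had 7.90, 29.5, 23.0 and 22.3 CPM. Both day 1 samples lay above the healthy samples, while at day 3 samples 1 and 2 were high and sample 3 lay within the healthy range. The log2 fold change was 0.92 at day 1 (SE 0.73, edgeR adjusted p = 0.587), 2.36 at day 3 (SE 0.64, edgeR adjusted p = 0.0413) and 1.32 at day 7 (SE 0.62, edgeR adjusted p = 0.244).

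The call for Vwf at day 3 rested on individual samples. Without day 3 sample 2 the log2 fold change was 1.33 (edgeR adjusted p = 0.136), and without samples 1 and 2 it was 0.53 (0.463). It was also lost on leaving out any 1 of the 4 healthy samples, either day 1 sample, day 3 sample 1 or day 7 samples 3 or 4, with values of 2.16 to 2.61 and adjusted p-values of 0.0637 to 0.115, without the filter (0.0584) and in the 2 groups alone (0.105). The sum of 10 large-vessel endothelial markers was 1376, 1702, 792 and 667 CPM in day 3 samples 1 to 4 and 1067 to 1224.5 CPM in healthy samples, with 2 of the 10 markers higher and 3 lower at day 3. The same day 3 samples 1 and 2 held the most monocyte and neutrophil markers. The part of either cell type in the Vwf result was not tested.

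Thbd encodes thrombomodulin, the endothelial receptor that binds thrombin and lets it activate protein C, in 1 exon on chromosome 2 from 148404466 to 148408188 on the minus strand. Healthy samples had 98.2, 151, 172 and 122 CPM of Thbd, and day 1 samples had 1488 and 1637 CPM. By day 3 the values were 162, 264.5, 79.2 and 101 CPM, and at day 7 they were 54.5, 98.8, 83.9 and 110.0 CPM. Thus only the day 1 samples stood apart, and the other 3 groups overlapped. Thbd rose by 3.53 on the log2 scale at day 1, or 11.5-fold (SE 0.41, n = 2 against 4, edgeR adjusted p = 0.000382). It was lower by day 3 than at day 1 (log2 fold change -3.36, SE 0.40, edgeR adjusted p = 0.00195) and at day 7 than at day 1 (-4.17, SE 0.41, edgeR adjusted p = 0.000166).

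These calls of Thbd held under every alternative tried, with 3.40 to 3.66 at day 1 when 1 sample was left out. Differences from healthy LSECs were 0.16 at day 3 (SE 0.34, edgeR adjusted p = 0.823) and -0.64 at day 7 (SE 0.34, edgeR adjusted p = 0.293). As a share of the LSEC marker sum, Thbd was 0.463% to 0.812% in healthy samples and 10.6% and 12.0% at day 1. Monocytes, which a CD45 gate is meant to remove, also make thrombomodulin. Both day 1 samples had raised monocyte and neutrophil marker sums and Ptprc levels above the healthy range. The day 1 sample with the higher monocyte and neutrophil sum (6756 CPM) had the lower Thbd level. Day 3 samples 1 and 2, with 5130.3 and 2818 CPM of those markers, had 162 and 264.5 CPM of Thbd. The first value lay inside the healthy range and the second above it. Day 3 samples 3 and 4, with 152 and 103 CPM of those markers, had 79.2 and 101 CPM of Thbd. The part of these cells in the day 1 level of Thbd was not tested.

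Procr encodes the endothelial protein C receptor, which presents protein C to thrombomodulin-bound thrombin, on chromosome 2 from 155751117 to 155755471 on the plus strand. Procr measured 34.4, 32.5, 27.6 and 23.4 CPM in healthy samples and 66.2 and 81.0 CPM at day 1. At day 3 it measured 32.4, 48.8, 31.2 and 17.4 CPM, and at day 7 17.4, 14.2, 24.1 and 32.2 CPM. Both day 1 samples lay above all other samples. The difference from healthy LSECs at day 1 was 1.32 on the log2 scale (SE 0.36, 2.50-fold), and its edgeR adjusted p of 0.0574 missed the threshold. It passed with DESeq2 (0.0102), voom (0.00246), a filter at a mean of 1 CPM (0.0349), the 2 groups alone (0.00927) and without day 3 samples 1 and 2 (0.0244).

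The level of Procr was lower at day 7 than at day 1 (log2 fold change -1.74, SE 0.36, edgeR adjusted p = 0.0112), but not past the threshold when either day 1 sample was left out (0.0755 and 0.105). Across the 14 samples the log2 CPM of Procr and Thbd had a Pearson r of 0.853, the highest of all pairs of these genes. The samples share the group structure, and this r is a description. The ratio of Thbd to Procr, both in CPM per kilobase of exon, was 12.26 and 11.03 at day 1 and 1.38 to 3.81 in the other 12 samples.

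Tfpi encodes tissue factor pathway inhibitor, the inhibitor of factor Xa and of tissue factor with factor VIIa, on chromosome 2 from 84432855 to 84476775 on the minus strand. Its values in healthy samples were 350.0, 292, 169 and 140.0 CPM, the widest relative range of the 4 genes most abundant per kilobase. Day 1 samples had 106 and 107 CPM, below each healthy sample. Day 3 samples had 143, 186, 111 and 91.0 CPM and day 7 samples 148, 97.2, 172 and 109 CPM, and both groups overlapped the healthy one. The log2 fold changes were -1.16 (SE 0.40, edgeR adjusted p = 0.130), -0.84 (SE 0.31, 0.122) and -0.85 (SE 0.31, 0.138) at days 1, 3 and 7. None passed the edgeR test with all samples. At day 1 DESeq2 (0.0305) and voom (0.0178) passed the threshold, as did voom at day 7 (0.0201). At day 3 the edgeR fits without healthy sample 4 (-1.15, 0.0373) and without day 3 samples 1 and 2 (-1.25, 0.0473) passed it.

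F2r encodes protease-activated receptor 1, the main thrombin receptor of endothelial cells, on chromosome 13 from 95601803 to 95618487 on the minus strand. In healthy samples F2r was at 304, 329, 328 and 279 CPM, and at day 1 it was at 626 and 573 CPM. Day 3 samples had 293, 317, 404 and 477 CPM and day 7 samples 261, 213, 220.2 and 286 CPM. The day 1 samples were above all others, and at day 3 samples 3 and 4 were above the healthy range. F2r rose by 0.95 on the log2 scale at day 1, or 1.93-fold (SE 0.21, edgeR adjusted p = 0.0211). This call was lost with library size scaling (0.0877), without the filter (0.0733) and on leaving out healthy samples 1 or 4, either day 1 sample, day 3 sample 3 or day 7 samples 1, 3 or 4 (0.0534 to 0.464), with log2 fold changes of 0.85 to 0.99. F2r was lower at day 7 than at day 1 by -1.29 (SE 0.21, edgeR adjusted p = 0.00317), a call lost without day 1 sample 1 (0.131) or 2 (0.0597), and its differences from healthy LSECs at day 3 (0.27, SE 0.18, adjusted p = 0.421) and day 7 (-0.34, SE 0.18, adjusted p = 0.289) did not pass.

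Plaur encodes the urokinase receptor uPAR, which holds urokinase at the cell surface, on chromosome 7 from 24462484 to 24475968 on the plus strand. Plaur was at 56.7, 64.5, 48.2 and 28.3 CPM in healthy samples, 562 and 489 CPM at day 1, and 254, 238, 172 and 147 CPM at day 3. At day 7 it was at 68.9, 61.9, 76.8 and 82.2 CPM. Day 1, day 3 and the rest formed 3 levels without overlap, and the day 7 range overlapped the healthy one at its lowest sample. The rise was 3.41 on the log2 scale at day 1, or 10.6-fold (SE 0.29, n = 2 against 4, edgeR adjusted p = 4.45e-05), and 2.04 at day 3, or 4.10-fold (SE 0.25, n = 4 against 4, edgeR adjusted p = 0.00129). At day 7 the difference was 0.55 (SE 0.25, edgeR adjusted p = 0.220).

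The decline of Plaur between times also passed the test, with -1.37 from day 1 to day 3 (SE 0.29, edgeR adjusted p = 0.0249), -1.49 from day 3 to day 7 (SE 0.25, 0.0130) and -2.86 from day 1 to day 7 (SE 0.29, 0.000193). The first was lost without day 1 sample 1 (0.185) or 2 (0.0996), the second without day 7 sample 3 (0.0724) or 4 (0.0631), and both in the fit of the 2 groups alone (0.0856 and 0.0796). Neutrophils and monocytes, which a CD45 gate is meant to remove, carry uPAR. Ptprc was at 36.9 to 109.6 CPM in healthy samples and 128 to 177 CPM at day 1. Of the 11 markers of these cells, 4 were higher at day 1 and 4 at day 3. The most abundant, S100a8 and S100a9, had means of 23.9 and 59.8 CPM in healthy samples and 1438 and 2644 CPM at day 1. Means of Retnlg, Csf3r, Ly6g and Chil3 were 4.63, 6.35, 0.294 and 0.539 CPM in healthy samples. At day 1 these means were 349, 101, 8.27 and 43.7 CPM, without overlap of the ranges. Means of the granule genes Mpo and Elane were 0.514 and 0.404 CPM in healthy samples and 0.583 and 0.772 CPM at day 1. The ranges of Mpo and Elane overlapped between healthy and day 1 samples. All 11 markers had a higher mean at day 1 than in healthy samples. The order of Plaur levels was that of the monocyte and neutrophil sums among the day 3 samples (5130.3, 2818, 152 and 103 CPM in samples 1 to 4). It was also that of the sums at day 1 (6756 and 2914 CPM). Among healthy and day 7 samples the orders differed, with healthy sample 4 lowest in both. Day 3 samples 3 and 4, whose sums lay within the healthy range of 39.6 to 231 CPM, had 172 and 147 CPM of Plaur, above the highest healthy value of 64.5 CPM. Without day 3 samples 1 and 2 the log2 fold change at day 3 was 1.67 (edgeR adjusted p = 0.00377). The macrophage gene Cd68 was at 26.1 to 112 CPM in healthy samples and at 233 to 775 CPM in day 3 samples, while the sum of the 8 macrophage markers that include it was 175 to 1340 CPM in healthy samples and 569.6 to 1597 CPM at day 3. At day 1 both samples had raised monocyte and neutrophil sums. The part of myeloid cells in the Plaur level was not tested at either time.

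**Figure D3:**
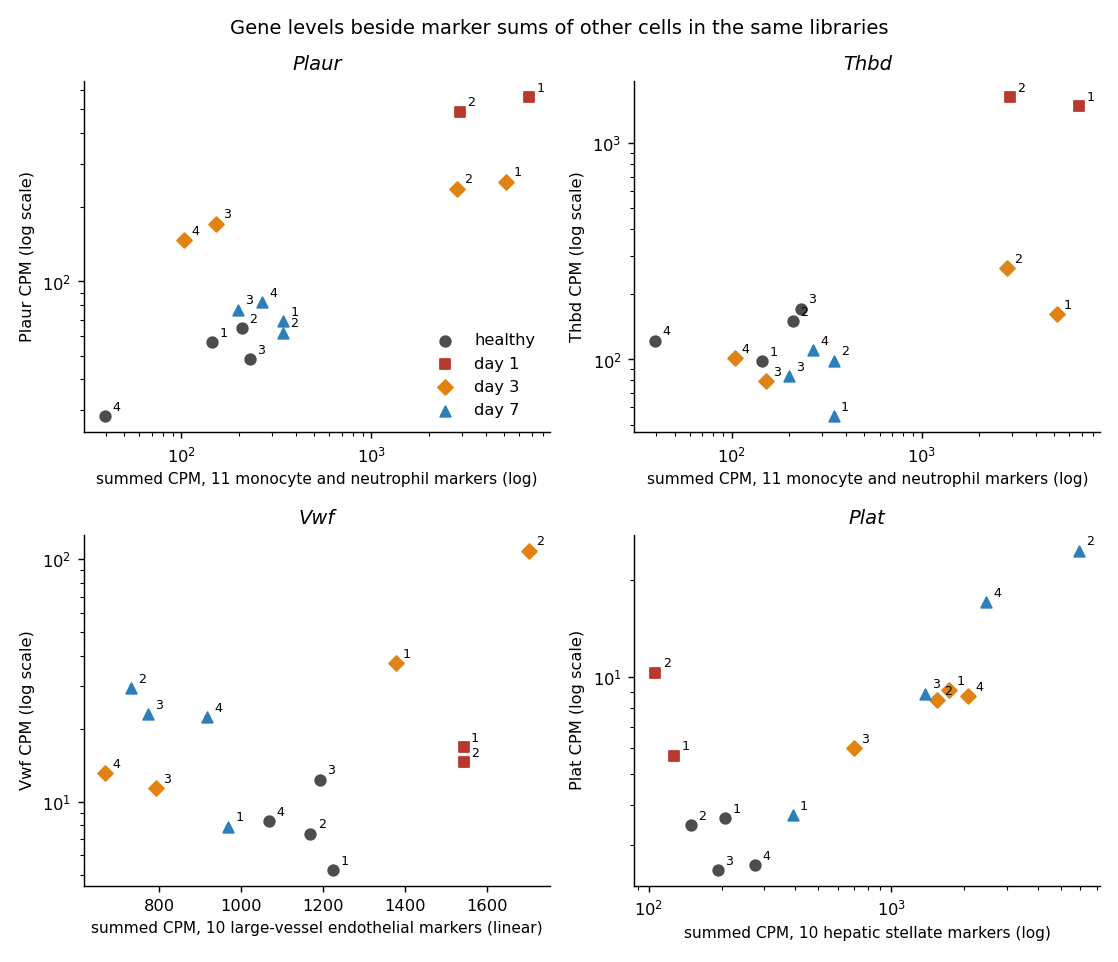
Levels of Plaur, Thbd, Vwf and Plat (y axes, CPM, log scale) beside the summed CPM of markers of another cell type in the same sample (x axes, log scale, linear for large-vessel markers). Each point is 1 sample with its number. The day 3 samples keep the order of their monocyte and neutrophil markers in Plaur. Among them, samples 3 and 4 lie within the healthy range of those markers but above it in Plaur. Plat follows the order of stellate cell markers among the day 7 samples.

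Plau encodes urokinase, the plasminogen activator bound by uPAR, on chromosome 14 from 20836660 to 20843385 on the plus strand. Healthy samples had 18.7, 32.7, 24.5 and 17.1 CPM of Plau and day 1 samples 23.1 and 29.7 CPM. In day 3 samples Plau was at 84.6, 47.9, 67.7 and 100.3 CPM, and at day 7 it was at 11.8, 29.5, 29.96 and 23.3 CPM. Only the day 3 samples lay above the healthy range, each of them, and the other 3 groups overlapped. Plau rose by 1.69 at day 3, or 3.23-fold (SE 0.32, n = 4 against 4, edgeR adjusted p = 0.00807), under each alternative tried and with 1.43 to 1.90 when 1 sample was left out. Its differences from healthy LSECs were 0.18 at day 1 (SE 0.38, edgeR adjusted p = 0.886) and 0.02 at day 7 (SE 0.31, edgeR adjusted p = 0.981).

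From day 3 to day 7 Plau fell by 1.67 (SE 0.32, edgeR adjusted p = 0.0222). This call was lost in 8 of 14 fits that left out 1 sample (either day 1 sample, day 3 samples 1 or 3, or any of the 4 day 7 samples, with adjusted p-values of 0.0510 to 0.118 and differences of -1.34 to -1.79) and in the fit of the 2 groups alone (0.0999). The stellate cell marker sums of day 3 samples 1 to 4 were 1731, 1535, 698 and 2077 CPM, and 9 of these 10 markers were higher at day 3. The sample order of Plau (4, 1, 3, 2) differed from that of the sums (4, 1, 2, 3). At day 7 the same 9 of 10 count of stellate markers was higher than in healthy samples, while Plau lay at 11.8 to 29.96 CPM. The part of these cells in the day 3 result was not tested.

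Plat encodes tissue-type plasminogen activator, the endothelial activator of fibrin-bound plasminogen, on chromosome 8 from 22757727 to 22782844 on the plus strand. Plat was low, with 3.63, 3.45, 2.51 and 2.60 CPM in healthy samples, 5.69 and 10.3 CPM at day 1, and 9.10, 8.47, 5.996 and 8.72 CPM at day 3. Day 7 samples had 3.71, 24.7, 8.86 and 17.1 CPM. Each of the 10 samples from injected mice lay above each healthy sample, day 7 sample 1 by the smallest margin. The log2 fold change was 1.39 at day 1 (SE 0.52, edgeR adjusted p = 0.167), 1.40 at day 3 (SE 0.45, edgeR adjusted p = 0.0777) and 2.16 at day 7 (SE 0.46, edgeR adjusted p = 0.0253), which was 4.46-fold.

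The call for Plat at day 7 was lost on leaving out healthy samples 1, 2 or 3 (0.0695 to 0.0841), day 7 sample 2 (1.70, 0.0897) or day 7 sample 4 (2.04, 0.0617). At day 3 DESeq2 (0.0167), voom (0.0399) the 2 groups alone (0.0253) and the fit without day 7 sample 1 (0.0310) passed the threshold, as did the 2 groups alone at day 1 (1.36, 0.0407). The stellate cell marker sums of day 7 samples 1 to 4 were 392, 5940.1, 1375 and 2451 CPM, in the same order as their Plat levels. At day 1, where Plat was at 5.69 and 10.3 CPM, these sums were 127 and 107 CPM, below the healthy range of 149 to 275 CPM. The part of stellate cells in the day 7 level was not tested. The ratio of Plat to Plau, both in CPM per kilobase of exon, was 0.0388 to 0.0736 in healthy samples and 0.0934 and 0.132 at day 1. It was 0.0330 to 0.0670 in day 3 samples and 0.112 to 0.318 in day 7 samples. At days 1 and 7 it lay above the healthy range in each sample.

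The genes whose log2 CPM ran most like each of the 9 over the 14 samples, among 15611 tested genes with a mean of at least 1 CPM, were Sesn1 (Pearson r 0.959) and Rbm5 (0.957) for F8, Bcam (0.960) and Slco2a1 (0.952) for Thbd, Slfn4 (0.970) and Cxcl3 (0.956) for Plaur, Tbl3 (0.963) and Msn (0.962) for F2r, and Cdc34 (0.953) and Fabp4 (0.927) for Procr. Lower values of r were reached for Plau (Gm12666 0.919, Nsg1 0.916), Plat (Ptprs 0.910, Mrvi1 0.900), Vwf (Plcb2 0.906, Extl3 0.903) and Tfpi (Igfbp7 0.886, Dusp12 0.885). These are descriptions over samples that share their groups.

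The remaining genes of the clotting system were taken from lists of 55 genes, of which 54 were tested (Serpina5 was not). Against healthy LSECs, 9 were higher and 1 lower at day 1 (18.5% of 54), 7 higher and 4 lower at day 3 (20.4%), and 5 higher and 2 lower at day 7 (13%). The shares over all 26626 tested genes were 4.06%, 7.19% and 3.18%.

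**Figure D4:**
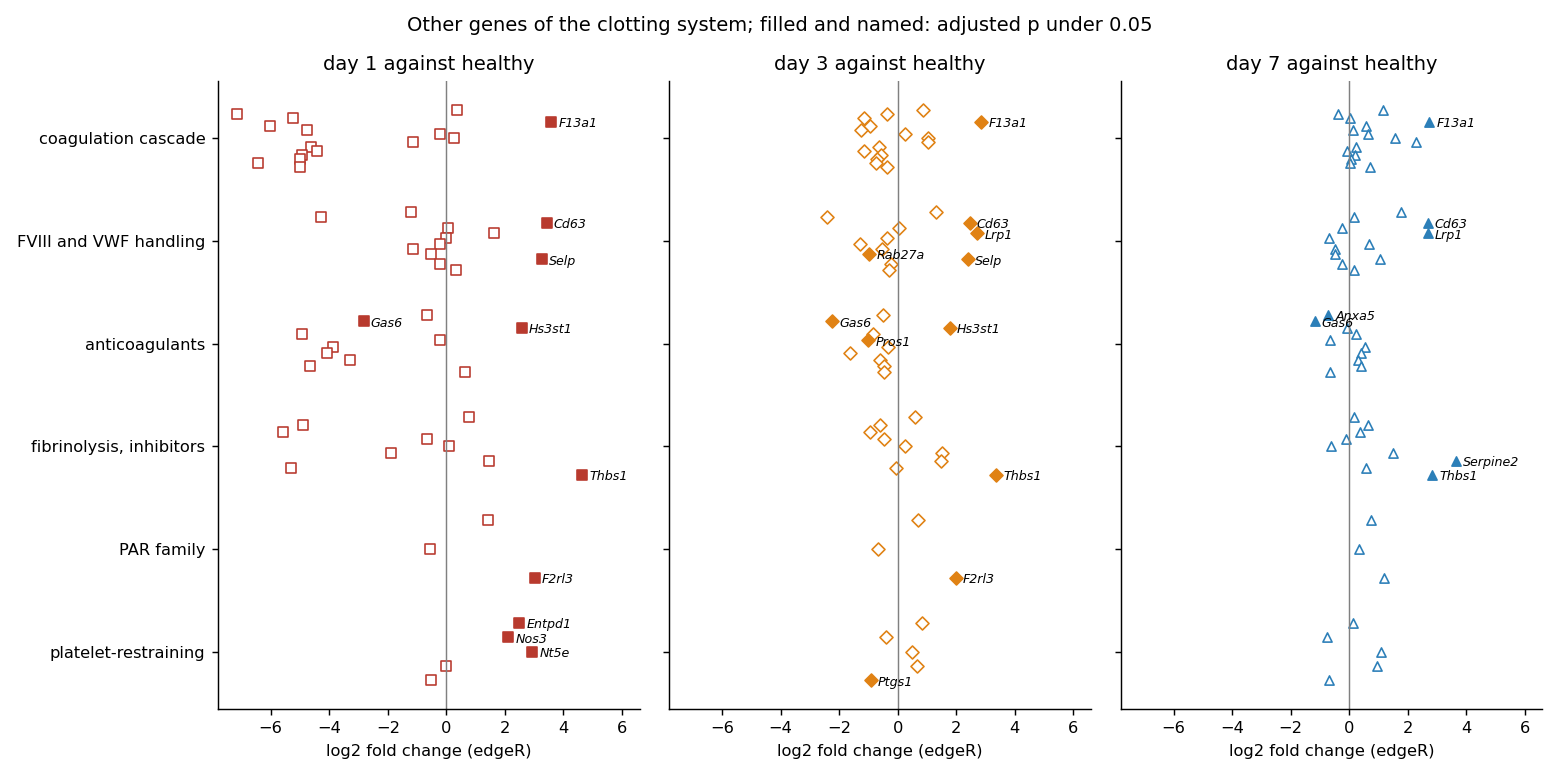
Log2 fold changes against healthy LSECs (x axes, edgeR) of 54 other genes of the clotting system by list (y axis) at day 1, day 3 and day 7. Filled and named symbols have an adjusted p under 0.05; Thbs1 and F13a1 are higher and Gas6 lower at each time, and most coagulation cascade genes lie far to the left at day 1 without passing the test; the day 1 median of that list is -4.75 with all samples and -1.54 without healthy sample 4.

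Of the 15 coagulation cascade genes, F13a1, the fibrin-crosslinking factor XIII A chain that macrophages also make, was the 1 that passed at each time. It was at 5.36 ± 1.74 CPM in healthy samples (SD, n = 4) and rose by 3.59 at day 1 (edgeR adjusted p = 0.00433), 2.86 at day 3 (0.00764) and 2.73 at day 7 (0.0170). The median log2 fold change of this list was -4.75 at day 1, -0.56 at day 3 and 0.25 at day 7, with no lower call. These medians rested on healthy sample 4. The sum of 10 hepatocyte markers, which share Fgb with the list, was 250.2, 188, 368 and 8227 CPM in healthy samples 1 to 4, 32.9 and 141 CPM at day 1, 890.4 to 3068 CPM at day 3 and 785 to 6337 CPM at day 7. Without healthy sample 4 the medians of the 15 cascade genes were -1.54, 2.73 and 3.50, with 2, 4 and 10 genes higher and none lower at an edgeR adjusted p of 0.05. The medians of the hepatocyte markers were -5.13, -0.48 and 0.27 with all samples and -1.77, 2.71 and 3.50 without healthy sample 4, where 0, 3 and 8 were higher. The part of hepatocyte RNA in the levels of the cascade genes was not tested. F3, which encodes tissue factor, was at 2.33 ± 0.92 CPM in healthy samples and at 2.02, 2.79 and 3.59 CPM at days 1, 3 and 7.

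Among 12 genes that handle factor VIII and von Willebrand factor, 2 were higher at day 1, 3 higher and 1 lower at day 3, and 2 higher at day 7. Selp, the P-selectin stored together with von Willebrand factor, rose by 3.25 at day 1 (20.4 ± 5.15 to 195 ± 12.1 CPM, edgeR adjusted p = 0.00798) and by 2.39 at day 3 (0.0167), with overlapping ranges at day 3; it is also 1 of the 10 large-vessel markers. Cd63, which marks the same storage granules and lysosomes, rose by 3.43, 2.46 and 2.68 at days 1, 3 and 7 (edgeR adjusted p = 0.000414, 0.00227 and 0.00481). Lrp1, a clearance receptor for factor VIII, rose by 2.72 at day 3 (0.0110) and 2.68 at day 7 (0.0207), and Rab27a, a GTPase of granule release, fell by 0.98 at day 3 (0.0120). Lman1 and Mcfd2, the cargo receptor pair for the secretion of factor VIII, did not pass at any time against healthy LSECs. Mean levels of Lman1 were 149.7, 157, 154 and 126 CPM in healthy, day 1, day 3 and day 7 samples, and those of Mcfd2 were 187, 185, 144 and 117 CPM. At day 7 Mcfd2 reached at most 127 CPM, below the healthy range of 169 to 219 CPM, with a log2 fold change of -0.68 (SE 0.18, edgeR adjusted p = 0.0590).

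In the list of 11 genes headed anticoagulants, Gas6, a vitamin K-dependent ligand of the TAM receptors, was lower at each time. Its place in this list does not make it an anticoagulant, and its level is no measure of anticoagulant function. It was at 382 ± 17.6 CPM in healthy samples and 53.8 ± 1.65 CPM at day 1, 80.6 ± 3.26 CPM at day 3 and 168 ± 18.5 CPM at day 7, with falls of 2.83, 2.25 and 1.19 on the log2 scale (edgeR adjusted p = 1.37e-05, 5.08e-06 and 0.00179). Pros1, the protein S cofactor of activated protein C, fell by 1.01 at day 3 (0.0255), and Anxa5 fell by 0.73 at day 7 (0.0436). Hs3st1, which makes the heparan sulfate that binds antithrombin, rose by 2.57 at day 1 (0.00801) and by 1.78 at day 3 (0.0209).

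Among 9 genes of fibrinolysis and its inhibitors none was lower against healthy LSECs, and 1, 1 and 2 were higher at days 1, 3 and 7. Serpine2, an inhibitor of urokinase and thrombin, rose by 3.65 at day 7 (edgeR adjusted p = 0.0222), where stellate markers were also higher. Thbs1, thrombospondin 1, rose by 4.63, 3.35 and 2.84 (edgeR adjusted p = 0.000931, 0.00423 and 0.0148).

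The other protease-activated receptors were low, and F2rl3, the receptor PAR4, rose by 3.02 at day 1 (0.320 ± 0.109 to 2.60 CPM, edgeR adjusted p = 0.00742) and by 1.98 at day 3 (0.0252), while the other two of the 3 did not pass. Of 5 genes that restrain platelets, 3 rose at day 1. These were Entpd1, the ectoenzyme CD39 (2.49, edgeR adjusted p = 0.00780), Nt5e, the ectoenzyme CD73 (2.94, 0.00810), and Nos3, the endothelial nitric oxide synthase (2.11, 0.00134). Like Thbd, Nos3 and Nt5e were lower at day 3 than at day 1 (-2.51 and -2.44, edgeR adjusted p = 0.00195 and 0.0309), and Entpd1 was lower at day 7 than at day 1 (-2.35, 0.00863). Ptgs1, a cyclooxygenase of prostacyclin synthesis, fell by 0.92 at day 3 (0.0105). The sum of 10 platelet and megakaryocyte markers was 323 to 518 CPM in healthy samples and 1723 to 1805 CPM at day 1, of which Clec1b, also an LSEC gene, made 1177 CPM and Itgb3 392 CPM. Of these markers 5 were higher at day 1 and none lower. Pf4, platelet factor 4, had a mean of 28.2 CPM in healthy samples and 169.6 CPM at day 1. Ppbp had 0.450 and 11.4 CPM and Itga2b 3.74 and 10.3 CPM. The platelet receptors Gp9 and Gp6 were at 0.567 and 0.0411 CPM in healthy samples and 0.807 and 0.173 CPM at day 1. Gp1ba, another platelet receptor of the list, went the other way. Its mean was 3.46 CPM in healthy samples and 1.52 CPM at day 1, without overlap and without passing the test. The part of platelets in the rises at day 1 was not tested. F13a1, Selp, Rab27a, Gas6, Thbs1, Nos3 and Ptgs1 share exon bases with other annotated genes, and since the use of strand in counting was not stated, their counts are uncertain to that extent.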

How the data were processed

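The authors trimmed the reads, mapped them with STAR to GRCm38.p6 and assembled them with StringTie (versions not given in the sources used here), and deposited, for each Ensembl gene, whole read counts that were not normalized. The annotation release and the use of strand were not given in the sources used here. Names and positions were taken from GENCODE vM21, which held 54495 of 54524 genes. The 4 groups came from the labels, which do not state that each sample was 1 mouse, so p-values measure the spread between these samples.

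Genes were filtered with filterByExpr (minimum count 10, minimum total 15), given TMM factors and compared by the quasi-likelihood test of edgeR 4.0.16 (R 4.3.3) in 1 model of 4 group means over 14 samples, with Benjamini-Hochberg adjustment over all 26626 tested genes and a threshold of 0.05. Every edgeR adjusted p in the text is of this kind. An SE is the size of the log2 fold change over the root of its F statistic, and log2 CPM used a prior count of 2. Alternatives were RLE size factors, library size only, DESeq2 1.42.0, voom with sample quality weights (limma 3.58.1), no filter, a mean of at least 1 CPM, the 2 groups of a comparison alone, a replicate block on sample number and each sample left out. Fits without day 3 samples 1 and 2, and list medians without healthy sample 4, were chosen after seeing the data.

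The 9 genes, the lists of other genes and the marker lists were chosen with earlier results of these data known. Of the lists, genes past the threshold against healthy LSECs were named, up to 3 per list and comparison by size of change; 1 gene of the lists is not reported here. Rab27a, F3, Lman1, Mcfd2 and single marker genes were named after their values were seen.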

Additional observations from a re-analysis of the deposited data

How the results depend on the processing

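Of the 54 tests (9 genes, 6 comparisons), 18 passed with the main settings, and no passed test changed direction under any alternative. RLE size factors kept all 54 on their side of the threshold, library size only lost 3, no filter lost 4, a mean of at least 1 CPM gained 1, the 2 groups alone lost 5 and gained 3, DESeq2 gained 7, voom gained 10, and the fit without day 3 samples 1 and 2 lost 2 and gained 6. The number of the 9 genes called moved at day 1 against healthy from 4 to 2 with library size only, 2 without a filter, 6 with DESeq2, 6 with voom and 6 in the 2 groups alone. For day 3 against day 1 it moved from 2 to 5 with DESeq2, 5 with voom, 1 in the 2 groups alone and 4 without day 3 samples 1 and 2. It moved from 3 to 0 for day 7 against day 3 in the 2 groups alone, and from 1 to 4 with voom and 2 without day 3 samples 1 and 2 for day 7 against healthy. With 1 sample left out, the counts were 2 to 5, 3 to 5 and 0 to 2 at days 1, 3 and 7 against healthy, 1 to 4 for day 3 against day 1, 0 to 3 for day 7 against day 3 and 2 to 4 for day 7 against day 1.

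Over all tested genes, the calls at days 1, 3 and 7 against healthy (1080, 1915 and 846), and for day 3 against day 1, day 7 against day 3 and day 7 against day 1 (676, 472 and 2142), became 2839, 3791, 2714, 2408, 1783 and 4576 with DESeq2, 4308, 7265, 7047, 3344, 6002 and 7610 with voom, and 2327, 1108, 3156, 189, 1 and 4465 in the 2 groups alone. Without day 3 samples 1 and 2 they became 1952 at day 1 and 2306 at day 7 against healthy, 1923 for day 3 against day 1 and 3676 for day 7 against day 1. For day 7 against day 3 they were 287 with library size only and 157 without a filter. With 1 sample left out they ran from 164 to 1845, 946 to 3314, 193 to 2166, 49 to 932, 26 to 1652 and 146 to 3630, in the same order. Library size only raised the share of higher calls from 64.2% to 75.1% at day 3 and from 68.8% to 86.8% at day 7 against healthy and from 45.3% to 56.0% for day 7 against day 1, where it shifted every log2 fold change by about 0.124. The causes were not tested.

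With the sample number as a replicate block, 6 of the 18 calls were lost (F8 at day 1, Vwf at day 3, Plat at day 7, Plaur from day 1 to day 3, F8 from day 3 to day 7 and Procr from day 1 to day 7). The 9 genes then had 1 call for day 3 against day 1 and 0 for day 7 against healthy, and the all-gene calls were 594 at day 1 and 435 at day 7 against healthy, 311 for day 3 against day 1, 244 for day 7 against day 3 and 1084 for day 7 against day 1. Over all tested genes, the deviations of samples from their group means were compared between groups. Samples with the same number had r from -0.232 to 0.0962 (18 pairs, median -0.00056). Those with other numbers had r from -0.256 to 0.236 (54 pairs, median 0.00448). A correlation over all genes cannot exclude a shared factor that affects few genes, so whether the number stands for a batch was not settled.

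Day 1 had 2 samples, so the spread was estimated from all groups together. A fit that left out 1 of the 2 day 1 samples assumed that the lone sample varied like the rest. Each of the 9 genes had at least 227 counts in each sample, and counting error was not set beside the spread between samples.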
